A study of Mus musculus with 12 samples.

Results

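Day 3 cultured primordial germ cell-like cells (PGCLCs) were compared with primordial germ cells (PGCs) of embryonic day 9.5 (E9.5). The comparison took 4 of the 12 mouse libraries of 3′-end RNA sequencing, chosen by their labels, with 2 libraries in each group. The cultured group, d4c3, was made from C57BL/6 embryonic stem cells that carry the Blimp1-mVenus and Stella-ECFP reporters. The stem cells were kept in 2i and LIF, turned into epiblast-like cells with activin A and bFGF, and induced to PGCLCs with BMP4, LIF, SCF and EGF. They were sorted at induction day 4 by Blimp1-mVenus fluorescence, expanded on m220 feeder cells (mostly a mitomycin C-resistant subline grown from a single cell) and sorted again at culture day 3. Embryos of the other group were 1:1 ICR and C57BL/6 by strain and carried the Stella-EGFP reporter, by whose fluorescence their PGCs were sorted. Libraries were made from 10 ng of RNA in d4c3 and 1 ng at E9.5. Culture is therefore confounded with strain, reporter, sort, RNA input and stage, and none of these can be told apart here. The labels give no sex and no number of embryos or cultures, so p-values cover no more than how these libraries varied, which may be technical.

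PGCs are the founders of sperm and eggs. In the mouse they arise from the epiblast under BMP signals, turn on the transcription factors Blimp1 (gene Prdm1), Prdm14 and Tfap2c, regain pluripotency genes and shut down the somatic programme of their neighbours. They then migrate through the hindgut towards the gonads while DNA methylation and imprints are being erased. PGCLCs are their counterparts in culture, made to follow the same path from an epiblast-like state.

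Values are RPM, the read count of a gene scaled to a fixed total per library. Differences are on the scale of log2(RPM + 1), d4c3 minus E9.5, with the standard error (SE) of a limma model, and they understate the change of low genes. A gene was called at an adjusted p under 0.05. Depth, estimated from the steps of the values, was 2260137 to 2563110 reads in genes in d4c3 and 2728173 to 4251559 at E9.5. At that depth a value of 0 allows up to 1.33 RPM in the shallowest of these libraries, counting error only. The root mean square difference between replicates on the log2 scale was 0.417 in d4c3 and 0.329 at E9.5.

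Of 10856 genes tested, 2574 were called (23.7%), 1456 higher in d4c3 (13.4%) and 1118 lower (10.3%). Counts of called list members below are to be read beside these shares. Changes of at least 2-fold made up 599 of the higher and 712 of the lower calls. Across genes, which are not independent replicates, the group means on the log2 scale correlated at r = 0.913. The number called fell with any of the 4 libraries left out. Each such fit leaves a single library in a group and has less power. A call lost in these fits therefore need not rest on the library left out. In every one of these 4 fits 1002 of the genes were called, 534 higher and 468 lower.

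**Figure D1:**
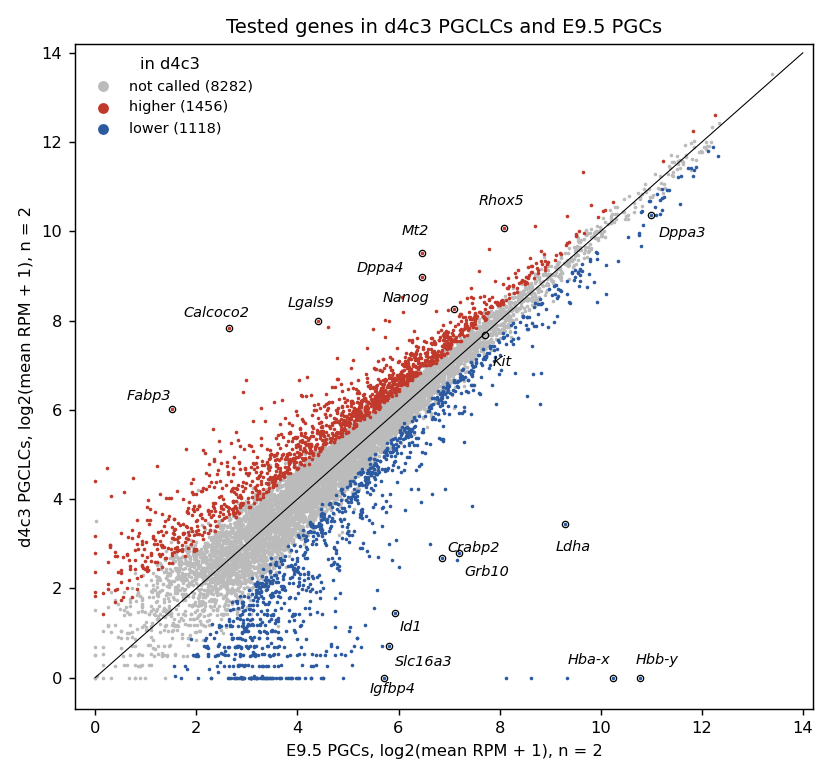
Mean expression of the 10856 tested genes, as log2(mean RPM + 1), in E9.5 PGCs (horizontal) and d4c3 PGCLCs (vertical), with 2 libraries per group; red points were called higher in d4c3, blue lower, grey not called, and the line marks equality. Kit lies on the line, while Ldha and the globin gene Hbb-y lie far below it and Calcoco2 and Fabp3 far above it.

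Markers of other cell types of the embryo are given first, because blood, endoderm and several mesenchyme markers were higher at E9.5 beside many results below. Which cells these transcripts came from was not tested. The 6 globin genes with a row summed to 4585 and 4059 RPM at E9.5 and to 0 in both d4c3 libraries. Of 17 genes in the blood list, 14 were at 0 in both d4c3 libraries and none was at 0 in both E9.5 libraries. Of the 7 that could be tested, 6 passed the filter on low values only through E9.5, so that their being lower in d4c3 was fixed by the filter. The embryonic globin gene Hbb-y was at 1865 and 1669 RPM at E9.5, and Hba-x, of the embryonic alpha-like chain, at 1322 and 1109 RPM. The alpha-fetoprotein gene Afp, a marker of yolk sac and gut endoderm, was at 15.8 and 20.8 RPM at E9.5 and listed at 0 in d4c3.

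Mesenchyme and stroma genes summed to 980 and 943 RPM at E9.5 and to 834 and 793 RPM in d4c3, and 10 of 14 tested were lower in d4c3 (3 with a filter of 20 RPM) and 1 higher. Of the 14, 7 passed the filter only through E9.5 and had to be lower in d4c3. Twist1, a transcription factor of mesenchyme, was at 38.6 and 39.9 RPM at E9.5 and 0.782 and 1.77 RPM in d4c3. The receptor gene Pdgfra was at 16.5 and 15.6 RPM against 0 and 0.444 RPM. Collagen genes, which stromal cells such as feeders express, varied among themselves. Col1a1 was at 0.391 and 0.444 RPM in d4c3 and 25.4 and 19.6 RPM at E9.5. Col3a1 was at 4.69 and 4.44 RPM against 61.0 and 66.1 RPM, and lost its call with any of the 4 libraries left out. Col6a1, too low to test, was at 1.57 and 2.22 RPM against 0.735 and 0.472 RPM, the reverse order. The member that was higher in d4c3, Sparc, encodes a matrix protein and was at 386 and 335 RPM against 167 and 159 RPM.

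Endothelium genes summed to 137 and 154 RPM in d4c3 and 146 and 144 RPM at E9.5. Of 6 tested, 2 were higher (Tek and Esam) and 1 lower (Cldn5, on chromosome 16). Without the filter on low values 4 were lower. Of the 6, 1 passed the filter only through d4c3, which favours a higher call. Pecam1, an adhesion gene that PGCs themselves express, made up more than any other tested member, and the endothelial cadherin gene Cdh5 was at 0 in all 4 libraries. Hindgut and endoderm genes summed to 100 and 93.2 RPM in d4c3 and 161 and 174 RPM at E9.5, with 4 of 6 tested lower and 1 higher, 2 of the 6 having passed the filter only through E9.5. Without a filter 8 were lower, and with a filter of 20 RPM 2 were. The number lower was also 2 without d4c3 replicate 1, E9.5 replicate 1 or E9.5 replicate 2, and 3 without d4c3 replicate 2, and the higher call was lost in all 4 fits. Neural genes summed to 57.1 and 64.6 RPM against 84.9 and 71.1 RPM, with 3 of 6 tested lower and 1 higher, 3 of the 6 having passed the filter only through E9.5. Lower calls numbered 9 without a filter and 0 with a filter of 20 RPM. The higher one was the eye and brain factor Pax6, at 37.6 and 43.0 RPM in d4c3 and 11.4 and 10.4 RPM at E9.5. In bulk RNA, fewer cells of a type and less RNA per cell cannot be told apart.

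Germ cell identity genes showed moderate differences in both directions, and several were not called. Kit, the receptor for stem cell factor, was at 204 and 206 RPM in d4c3 and 204 and 211 RPM at E9.5. Its difference of -0.01 ± 0.17 (SE) was not called. Tfap2c was at 185 and 170 RPM against 217 and 225 RPM, and Nanos3, which encodes an RNA-binding protein that protects PGCs from death, at 8.997 and 11.1 RPM against 15.4 and 13.5 RPM. Neither was called, although the groups did not overlap, as was true of 67.2% of all tested genes. Tfap2c was called lower in a fit of the 4 libraries alone (adjusted p = 0.0296), also with a replicate block (0.0278). The interferon-induced surface genes Ifitm1 and Ifitm3, long used as PGC markers, were not called either, Ifitm3 being at 898 and 992 RPM against 1053 and 994 RPM.

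Both genes whose reporters served the sorts were called, in opposite directions. Prdm1, whose reporter selected the PGCLCs, was at 106 and 113 RPM in d4c3 and 68.6 and 65.1 RPM at E9.5, a difference of 0.71 ± 0.15 (SE; limma, adjusted p = 0.00386). Dppa3, which encodes Stella and whose reporter selected the embryonic cells, was at 1332 and 1310 RPM in d4c3 and 2013 and 2089 RPM at E9.5, a difference of -0.63 ± 0.10 (adjusted p = 0.000582). Each was higher in the group sorted on its own reporter, and sort and culture cannot be told apart. Both calls held with each of the 4 libraries left out.

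Of 16 PGC genes tested, 5 were higher and 3 lower, with a median of -0.05. Only 1 was lower without d4c3 replicate 2 or without E9.5 replicate 1, and 5 were lower in a fit of the 4 libraries alone, with or without a replicate block. The largest differences belonged to Rhox genes, X-linked homeobox genes of germ cells and placenta. Rhox5 was at 1089 and 1079 RPM in d4c3 and 261 and 280 RPM at E9.5, a difference of 2.00 ± 0.11 (adjusted p = 3.07e-08). Rhox6 was at 735 and 819 RPM against 210 and 234 RPM, and Rhox9 at 1035 and 1199 RPM against 394 and 433 RPM. The 3 genes lie in a single cluster on the X chromosome and resemble each other, so shared reads among them are possible.

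Dnd1, which encodes an RNA-binding partner that keeps PGCs alive, was at 150 and 128 RPM in d4c3 and 218 and 190 RPM at E9.5 (-0.55 ± 0.14, adjusted p = 0.00891). The call was lost without d4c3 replicate 2 (adjusted p = 0.0915) or E9.5 replicate 1 (adjusted p = 0.111). Prdm14 was at 101 and 122 RPM against 80.2 and 82.1 RPM, with an adjusted p of 0.0498 that rose to between 0.0551 and 0.292 with any of the 4 libraries left out. Lin28a, an inhibitor of let-7 processing needed for PGC formation, was at 25.03 and 17.7 RPM against 45.2 and 43.9 RPM. Its call (adjusted p = 0.0491) was likewise lost with any of the 4 libraries left out, at 0.0819 to 0.257.

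Pluripotency genes were mostly higher in culture: 11 of 21 tested were higher and 3 lower, with a median difference of 0.59. Nanog was at 319 and 291 RPM in d4c3 and 146 and 126 RPM at E9.5, a difference of 1.17 ± 0.13 (adjusted p = 2.37e-05). Tdgf1, the Nodal co-receptor gene also called Cripto, was at 43.4 and 33.7 RPM against 4.41 and 4.48 RPM (2.85 ± 0.36). Dppa5a, which encodes a KH-domain protein of pluripotent cells, was at 2649 and 2504 RPM against 801 and 796 RPM (1.69 ± 0.12). Each of these groups of 2 lay far apart, and the calls held with each of the 4 libraries left out.

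Further members of the naive network followed. Zfp42, also called Rex1, was at 66.5 and 74.5 RPM against 22.1 and 24.4 RPM. Tfcp2l1 was at 68.6 and 73.2 RPM against 34.6 and 25.2 RPM, and Esrrb at 290 and 294 RPM against 193 and 195 RPM. Dppa2 and Dppa4, partners that bind chromatin at germline and early embryonic genes, had larger differences of 2.55 ± 0.21 and 2.51 ± 0.18. Dppa4 was at 520 and 488 RPM against 86.8 and 88.2 RPM, and Dppa2 at 97.8 and 112 RPM against 18.8 and 15.6 RPM. Both lie on chromosome 16, whose genes were shifted upward as a whole (below).

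The core factors Pou5f1 and Sox2 did not follow. Sox2 was at 422 and 390 RPM in d4c3 and 395 and 375 RPM at E9.5 and was not called. Pou5f1, the gene of Oct4, was lower in d4c3, at 630 and 495 RPM against 756 and 678 RPM (-0.36 ± 0.12, adjusted p = 0.0382). Its adjusted p was 0.333 without d4c3 replicate 2, 0.259 without E9.5 replicate 1 and 0.0790 without E9.5 replicate 2. Gbx2, a homeobox gene of the posterior epiblast and hindbrain as well as of stem cells, was at 0.782 and 1.77 RPM against 15.1 and 16.8 RPM (-2.93 ± 0.38). The list had 1 lower call in each of those same 3 fits and in a fit without the variance trend.

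**Figure D2:**
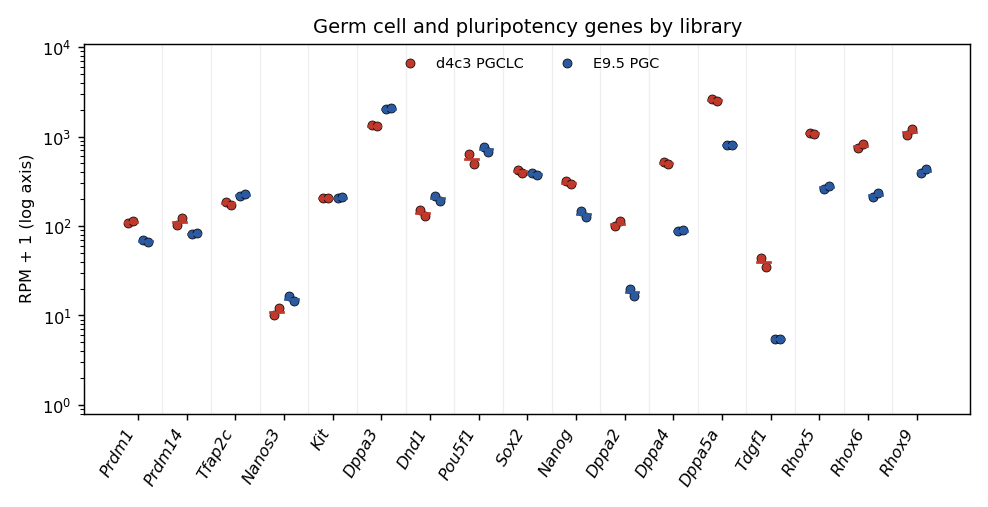
RPM + 1 on a log axis for germ cell and pluripotency genes in each of the 2 d4c3 PGCLC libraries (red) and 2 E9.5 PGC libraries (blue), with a line at each group mean. Kit and Sox2 overlap between the groups, whereas Nanog, Dppa2, Dppa4, Dppa5a, Tdgf1 and the Rhox genes are higher in both d4c3 libraries.

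Genes of later germ cells, many of which are repressed by DNA methylation until it is erased, were higher in d4c3 in 12 of 22 tested and lower in 0, with a median difference of 0.80. The count was 6 without E9.5 replicate 2. Dazl, an RNA-binding regulator that licenses germ cells for gametogenesis, was at 32.5 and 31.1 RPM in d4c3 and 12.9 and 9.44 RPM at E9.5 (1.45 ± 0.29, adjusted p = 0.00234). It just missed the call without E9.5 replicate 2 (adjusted p = 0.0503). Piwil2, a Piwi protein of the piRNA pathway that silences transposons, was at 52.8 and 44.8 RPM against 18.8 and 18.4 RPM. Tex19.1, which restrains retrotransposons, was at 75.1 and 63.0 RPM against 18.8 and 21.8 RPM, and Tdrd12, another piRNA factor, at 44.98 and 36.8 RPM against 13.6 and 16.04 RPM. Calls of Piwil2, Tex19.1 and Tdrd12 held with each of the 4 libraries left out.

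The largest difference of the list was that of Rpl10l, a testis-expressed copy of a ribosomal protein gene, at 56.1 and 49.2 RPM against 5.88 and 12.7 RPM (2.46 ± 0.29). Reads of Rpl10l could be shared with its parent gene. The bromodomain gene Brdt was at 7.04 and 8.43 RPM against 1.47 and 0.944 RPM. Ddx4, the vasa helicase gene, was at 50.5 and 42.7 RPM against 29.9 and 26.6 RPM, and its call (adjusted p = 0.0273) was lost with any of the 4 libraries left out (0.0577 to 0.179). These levels were below those of E12.5 germ cells. Dazl averaged 1174 RPM in male and 1218 RPM in female germ cells of E12.5, and Ddx4 427 and 446 RPM. Stra8, the retinoic acid-induced gene of meiotic entry, was near 0 in both groups (0 and 0.444 RPM in d4c3, 0.735 and 0.236 RPM at E9.5).

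Of 13 DNA methylation genes tested, 2 were higher and 2 lower, with a median of 0.08. The maintenance methyltransferase gene Dnmt1 was at 190 and 186 RPM in d4c3 and 161 and 176 RPM at E9.5 and was not called. Its partner Uhrf1, which recruits it to hemimethylated DNA, was at 6.65 and 12.4 RPM against 30.9 and 25.7 RPM (-1.53 ± 0.33). The call of Uhrf1 was lost without d4c3 replicate 1 (adjusted p = 0.0649) or E9.5 replicate 1 (adjusted p = 0.0589). The dioxygenase gene Tet1, which oxidises methylcytosine, was at 153 and 127 RPM against 49.3 and 51.7 RPM (1.45 ± 0.21), and its call held in the 4 fits.

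Dnmt3l, the cofactor of de novo methylation, was at 1.96 and 14.19 RPM in d4c3 and listed at 0 in both E9.5 libraries. The d4c3 replicates were far apart, and the call was lost without d4c3 replicate 2 (adjusted p = 0.152), E9.5 replicate 1 (0.0792) or E9.5 replicate 2 (0.0783). The de novo enzyme gene Dnmt3a was at 16.04 and 16.9 RPM against 33.5 and 32.8 RPM, a call that was lost with any of the 4 libraries left out (adjusted p = 0.0977 to 0.150). Lower calls in the list numbered 0 without d4c3 replicate 1 or E9.5 replicate 1 and 1 in the other fits, and higher calls 1 without either E9.5 library.

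Of 22 genes of H3K9 methylation and Polycomb silencing, 6 were higher in d4c3 and 0 lower, with a median of 0.19. The share called in either direction was near that of all tested genes (23.7%). All of the list's calls were higher, a larger share than the 13.4% higher among all tested genes, whose median was 0.04. Several of the 22 genes encode subunits or partners of Polycomb repressive complex 2, which methylates H3K27. The core subunit gene Eed was at 215 and 189 RPM against 120 and 122 RPM (0.73 ± 0.15), and Jarid2, which helps to target the complex, at 252 and 291 RPM against 193 and 146 RPM. Suz12 was at 195 and 147 RPM against 81.3 and 79.5 RPM, and lost its call without d4c3 replicate 1 (adjusted p = 0.0775), E9.5 replicate 1 (0.0516) or E9.5 replicate 2 (0.0567). The catalytic subunit gene Ezh2 was at 264 and 245 RPM against 229 and 245 RPM and was not called. The list had 2 calls without d4c3 replicate 1, 3 without E9.5 replicate 1 and 2 without E9.5 replicate 2.

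Outside the globin genes, the largest fitted difference was that of a glycolysis gene, Ldha. Glycolysis turns glucose into pyruvate, lactate dehydrogenase reduces pyruvate to lactate, and the transporter Slc16a3 (MCT4) exports it. Many of these genes carry hypoxia-response elements, to which the factor HIF1 binds. Ldha, which encodes a lactate dehydrogenase subunit (NCBI gene 16828, GRCm38.p6 chromosome 7, 46842274 to 46855627), was at 8.21 and 11.5 RPM in d4c3 and 640 and 620 RPM at E9.5, a difference of -5.88 ± 0.24 (adjusted p = 2.24e-09). Slc16a3 was at 0.391 and 0.887 RPM against 53.7 and 57.3 RPM. Pfkl, the liver-type subunit gene of phosphofructokinase, was at 3.13 and 2.66 RPM against 46.7 RPM in both E9.5 libraries. For each of these 3 genes every d4c3 library was far below every E9.5 library.

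To show the sequence context of these genes, promoters were searched for the core of the hypoxia-response element, ACGTG, on both strands. Shown are the 250 bases before a RefSeq start (GRCm38.p6) of Ldha and Slc16a3, chosen after their values were seen, and of Ankrd37 and Bnip3, the 2 hypoxia-response genes with the largest lower calls. Capitals mark ACGTG or its reverse complement, and where both overlap they form CACGTG, which is also an E-box.
Ldha, chr7:46845554-46845803, plus strand: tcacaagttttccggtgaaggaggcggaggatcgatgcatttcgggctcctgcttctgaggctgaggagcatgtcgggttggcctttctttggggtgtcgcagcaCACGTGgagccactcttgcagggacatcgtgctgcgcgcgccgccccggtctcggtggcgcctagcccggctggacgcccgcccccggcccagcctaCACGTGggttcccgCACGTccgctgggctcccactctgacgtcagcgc
Slc16a3, chr11:120948817-120949066, plus strand: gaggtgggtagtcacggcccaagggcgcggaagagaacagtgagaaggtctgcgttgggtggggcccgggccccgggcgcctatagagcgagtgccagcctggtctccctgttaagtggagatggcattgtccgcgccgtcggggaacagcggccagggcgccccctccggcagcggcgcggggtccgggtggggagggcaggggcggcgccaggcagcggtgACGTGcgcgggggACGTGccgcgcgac
Ankrd37, chr8:45999851-46000100, minus strand: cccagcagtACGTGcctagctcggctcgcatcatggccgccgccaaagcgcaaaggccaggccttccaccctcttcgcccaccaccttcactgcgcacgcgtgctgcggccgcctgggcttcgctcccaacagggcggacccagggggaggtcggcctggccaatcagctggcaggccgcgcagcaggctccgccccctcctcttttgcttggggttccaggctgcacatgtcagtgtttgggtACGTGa
Bnip3, chr7:138909507-138909756, minus strand: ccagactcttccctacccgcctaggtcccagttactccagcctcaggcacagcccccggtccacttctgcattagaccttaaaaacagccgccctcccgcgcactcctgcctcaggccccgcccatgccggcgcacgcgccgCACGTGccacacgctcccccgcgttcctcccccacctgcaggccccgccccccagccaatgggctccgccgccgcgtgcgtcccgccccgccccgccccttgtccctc
The Ldha window shown held 3 marked places, the Slc16a3 and Ankrd37 windows 2 each and the Bnip3 window 1. A second Ldha window, at another RefSeq start (chr7:46846832-46847081), held 0. In the windows shown, the nearest match began 34 bases before the start in Ldha, 14 in Slc16a3, 6 in Ankrd37 and 107 in Bnip3.

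Of all 32851 promoter windows of this length, 16.6% held the core, and 18.5% of genes had it in at least 1 window. All 6 of the called hypoxia-response genes with a window held it, 5 of them lower and Mxi1 higher in d4c3, and 6 of the 11 lower glycolysis genes with a window did. Members that were not called, and higher glycolysis genes, were not searched. These shares therefore cannot set the called genes apart from other members of their lists. A match is a description of letters in these windows and not a measured binding site.

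Of 23 glycolysis genes tested, 11 were lower in d4c3 and 3 higher, with a median of -0.46, and 10 of the lower genes kept the call with each of the 4 libraries left out. The lower genes lay at several steps from glucose-6-phosphate to lactate, but Gapdh, which acts among them, was not called. Pfkp, another phosphofructokinase subunit gene (limma, adjusted p = 0.0429), and Pfkfb3 (0.00491) were called higher. The isomerase gene Tpi1 was at 77.8 and 60.3 RPM against 248 and 238 RPM (-1.81 ± 0.16), and the enolase gene Eno1 at 446 and 332 RPM against 1109 and 1103 RPM (-1.52 ± 0.14). The pyruvate kinase gene, listed as Pkm2, was at 855 and 776 RPM against 1713 and 1864 RPM (-1.13 ± 0.09). Reads of Tpi1, Eno1 and other glycolysis genes could be split with their many processed copies in the genome.

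Genes of glucose entry were not among the lower calls. The transporter gene Slc2a3 was at 432 and 637 RPM in d4c3 and 414 and 367 RPM at E9.5 and was not called, nor were Slc2a1, Hk1 and Hk2. Ldhb, the other lactate dehydrogenase subunit, was higher in d4c3, at 55.7 and 69.2 RPM against 19.5 and 19.8 RPM (1.61 ± 0.23). Higher glycolysis calls numbered 1 without d4c3 replicate 1 or E9.5 replicate 2, and 5 with a replicate block over the 4 libraries. The mean of Ldha at E12.5 was 24.97 RPM in male and 71.2 RPM in female germ cells, between d4c3 and E9.5. Blood, stroma and endoderm transcripts were also higher at E9.5, as given above, and their part in the glycolysis levels was not tested.

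Of 16 hypoxia-response genes tested, which include 3 that other lists also hold (Hk2, Pdk1 and Kdm3a), 5 were lower and 2 higher, with a median of 0.06. Bnip3, a mitophagy receptor gene, was at 27.8 and 35.5 RPM against 91.9 and 89.2 RPM (-1.498 ± 0.24). Ankrd37 was at 8.997 and 10.7 RPM against 28.3 and 33.5 RPM (-1.56 ± 0.29), and the oxygen sensor gene Egln1 at 23.9 and 21.7 RPM against 46.0 and 46.5 RPM. Vegfa, the vascular growth factor and a well-known HIF target, was at 20.0 and 16.7 RPM against 19.12 and 14.9 RPM and was not called. Calls of Bnip3, Ankrd37 and Egln1 held in the 4 fits. Lower calls numbered 3 without d4c3 replicate 2 or either E9.5 library, and also without the filter on low values or the variance trend, and higher calls 1 without d4c3 replicate 1 and 0 in the other 3.

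**Figure D3:**
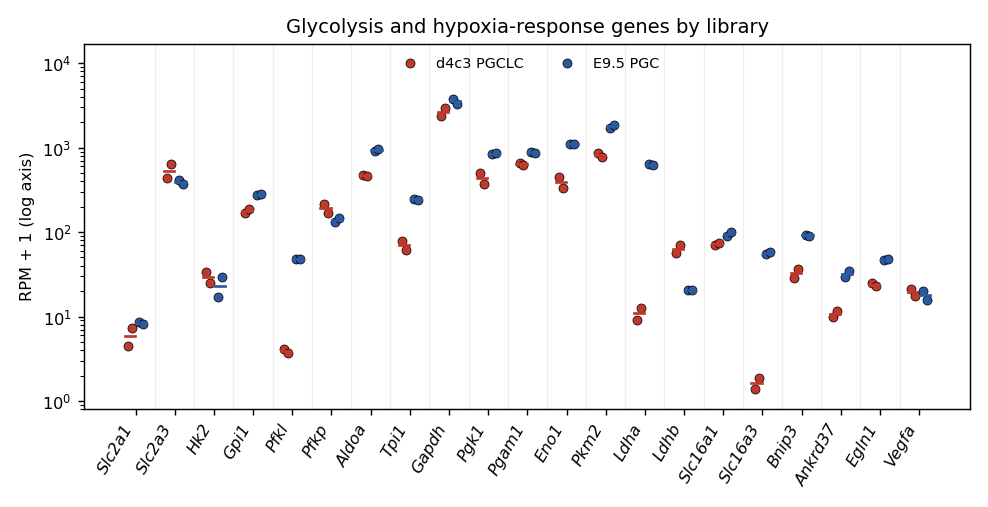
RPM + 1 on a log axis for glycolysis and hypoxia-response genes in each of the 2 d4c3 PGCLC libraries (red) and 2 E9.5 PGC libraries (blue), with a line at each group mean. Ldha, Slc16a3 and Pfkl differ most, while Hk2 and Vegfa overlap between the groups and Ldhb is higher in both d4c3 libraries.

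Response genes of the signals that PGCs meet in the embryo were compared next. BMP induces PGCs and turns on Id genes, which encode inhibitors of helix-loop-helix factors. Id1 was at 0.782 and 2.66 RPM in d4c3 and 56.3 and 63.5 RPM at E9.5, a difference of -4.57 ± 0.38 (adjusted p = 2.83e-06). Id3 was at 231 and 174 RPM against 217 RPM and 218 RPM and was not called. Of 13 BMP response genes tested, 5 were lower (3 without E9.5 replicate 2 or with a filter of 20 RPM) and 3 higher. Among the higher were the ligand gene Bmp4, at 34.1 and 19.6 RPM against 3.68 and 5.46 RPM, and Gata2, a mesoderm and blood factor induced in early PGCLCs, at 50.5 and 66.1 RPM against 14.7 and 22.2 RPM.

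Retinoic acid pathway genes were lower in 6 of 12 tested and higher in 0, with a median of -1.21. Of the 12, 2 (Rarb and Stra6) passed the filter only through E9.5 and had to be lower in d4c3. The binding protein genes Crabp2 (2.74 and 7.99 RPM in d4c3, 110 and 122 RPM at E9.5) and Crabp1 (19.2 and 16.4 RPM against 118 and 123 RPM) had large differences, -4.33 ± 0.41 and -2.70 ± 0.37. The receptor gene Rarb, a direct target of retinoic acid, was at 0.782 and 0.444 RPM against 5.88 and 6.84 RPM. Stra6, the retinol uptake receptor gene, was listed at 0 in d4c3 and was at 9.56 and 5.43 RPM at E9.5. Cyp26a1, which encodes the enzyme that degrades retinoic acid, was at 12.9 and 0.887 RPM in d4c3 and 1.84 and 3.54 RPM at E9.5. The groups overlapped for Cyp26a1 and it was not called.

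Of 11 Wnt targets, 5 were lower and 1 higher, with a median of -0.91. Lower calls numbered 3 without d4c3 replicate 1 or either E9.5 library or with a filter of 20 RPM, and the higher call (Znrf3) held only without E9.5 replicate 2. Ccnd1, the cyclin D1 gene and also a cell cycle gene, was at 1.96 and 0.444 RPM against 32.0 and 31.6 RPM, and Notum, a secreted Wnt inhibitor gene, at 2.35 and 3.55 RPM against 19.9 and 17.5 RPM. Axin2, the standard readout of the pathway, was at 12.52 and 7.10 RPM against 9.56 and 13.9 RPM, and Lef1 was not called either.

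In the Nodal list, 2 of 7 tested were higher, 1 of them in each of the 4 fits with a library left out. Lefty1, a Nodal antagonist gene, was at 27.4 and 27.1 RPM in d4c3 and 8.64 and 6.84 RPM at E9.5 (1.70 ± 0.22). Nodal itself was at 22.3 and 20.9 RPM against 11.0 and 9.91 RPM, and its call (adjusted p = 0.0255) was lost with any of the 4 libraries left out (0.0842 to 0.145). In the FGF list, 2 of 15 were higher and 1 lower, near the share called of all tested genes (23.7%). The lower gene, Spred1 (adjusted p = 0.0281), lost its call with any of the 4 libraries left out (0.0787 to 0.209) and without the filter on low values or the variance trend. The ERK-responsive factor Etv5, which lies on chromosome 16, was at 466 and 439 RPM against 268 RPM in both E9.5 libraries, and the receptor gene Fgfr2 at 119 and 75.9 RPM against 41.5 and 39.2 RPM. The feedback genes Dusp4, Dusp6, Spry1, Spry2 and Spry4 were not called.

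Hox genes give cells their position along the body axis and are on in posterior mesoderm around the PGCs. The 28 Hox genes with a row summed to 2.15 and 2.69 RPM in d4c3 and to 194 and 207 RPM at E9.5. In d4c3 20 of the 28 were listed at 0 in both libraries, and at E9.5 none was. Both d4c3 libraries were thus near the value of a few reads for the whole family. Of the 17 that could be tested, all were called lower. But 16 of them had passed the filter on low values only through E9.5, so that their direction was fixed by the filter. Hoxb9 was listed at 0 in both d4c3 libraries and was at 26.1 and 32.1 RPM at E9.5. Hoxc6 was at 0.391 and 0 RPM against 11.0 and 11.3 RPM. Without the filter on low values all 28 were called lower, and with a filter of 20 RPM only Hoxb9 could be called. Hoxb9 had a mean of 0 RPM in male and 0.906 RPM in female germ cells of E12.5.

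Posterior mesoderm genes were lower in 4 of 5 tested and higher in 0 (9 lower without the filter on low values, 1 with a filter of 20 RPM). Of the 5, 2 (Meox1 and Cdx2) passed the filter only through E9.5 and had to be lower in d4c3. Meox1, a somite factor, was at 0.782 and 0.887 RPM in d4c3 and 33.8 and 36.8 RPM at E9.5 (-4.31 ± 0.39). The posterior factor gene Cdx2 was at 0.782 and 0.444 RPM against 5.52 and 6.13 RPM. T, which encodes Brachyury, was too low to test and was listed at 0 in d4c3 and at 3.31 and 4.72 RPM at E9.5. The mesenchyme genes Twist1 and Pdgfra given above were also near 0 in d4c3, and whether Hox and mesoderm transcripts came from PGCs or from other cells was not tested.

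**Figure D4:**
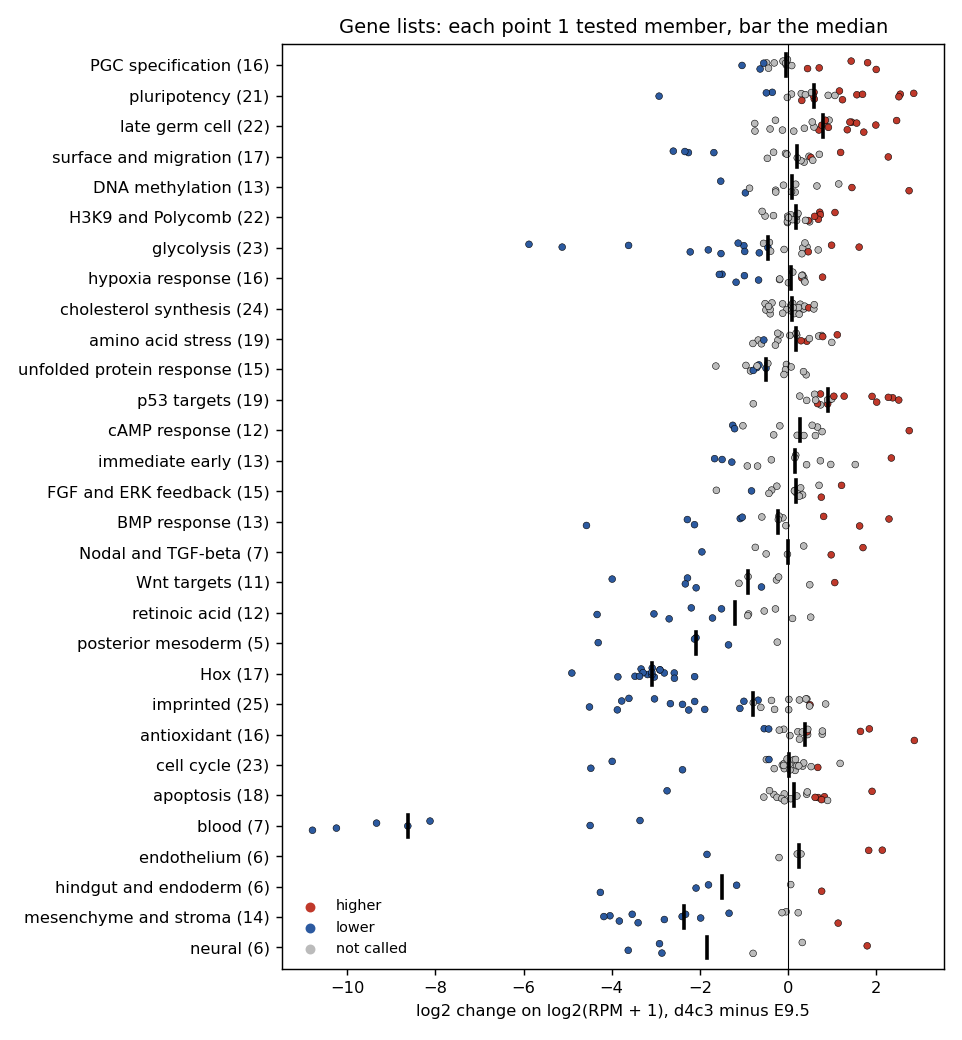
Log2 changes, d4c3 minus E9.5, on the scale of log2(RPM + 1), for every tested member of the 30 gene lists, with the number tested in brackets, red for higher, blue for lower and grey for not called, and a bar at each list's median. Hox and blood genes, most of which passed the filter only through E9.5, lie wholly on the lower side, and p53 targets have 11 higher and 0 lower calls.

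Imprinted genes are expressed from a single parental copy, a state that germ cells erase. Of 25 tested, 13 were lower in d4c3 and 1 higher, with a median of -0.79, 4 of the 25 having passed the filter only through E9.5. The growth regulator gene Grb10 was at 8.21 and 3.55 RPM in d4c3 and 145 and 147 RPM at E9.5 (-4.50 ± 0.40), and the growth factor gene Igf2 at 14.1 and 12.9 RPM against 179 and 172 RPM (-3.61 ± 0.38). Mest, a paternally expressed mesoderm gene, was at 74.3 and 64.8 RPM against 451 and 442 RPM, and Gnas, the stimulatory G protein gene, at 129 and 91.4 RPM against 385 and 426 RPM. Dlk1 and Nnat were among the genes that passed the filter only through E9.5 and had to be lower in d4c3. They were listed at 0 in d4c3 and were at 12.97 to 14.3 RPM and 11.8 to 13.6 RPM at E9.5. Calls of Grb10, Igf2, Mest and Gnas held in the 4 fits.

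Lower genes included members expressed from either parental copy. The maternally expressed Cdkn1c, an inhibitor of the cell cycle, was at 13.3 and 11.5 RPM against 66.9 and 71.9 RPM, and the maternally expressed Phlda2 at 173 and 209 RPM against 304 and 306 RPM. The maternally expressed receptor gene Igf2r was not called, at 91.5 and 84.3 RPM against 91.9 and 81.9 RPM. The paternally expressed Peg3 was the higher gene, at 359 and 322 RPM against 232 and 250 RPM (adjusted p = 0.00891), and lost the call without d4c3 replicate 1 (0.0880) or E9.5 replicate 1 (0.0939). Several of the lower genes are abundant in embryonic mesoderm, and the part of such cells was not tested.

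Targets of the tumour suppressor p53, which responds to DNA damage and other stress, were higher in d4c3 in 11 of 19 tested and lower in 0, with a median of 0.90. Between 8 and 10 were higher in the 4 fits with a library left out. The cyclin G1 gene Ccng1 was at 130 and 154 RPM in d4c3 and 27.2 and 25.7 RPM at E9.5 (2.37 ± 0.16, adjusted p = 3.11e-07). Trp53inp1, a stress-induced partner of p53, was at 134 and 141 RPM against 32.0 and 34.7 RPM (2.01 ± 0.11). Phlda3, an inhibitor of Akt, was at 18.8 and 25.7 RPM against 3.31 and 4.25 RPM, and the death receptor gene Eda2r at 18.8 and 39.0 RPM against 2.94 and 5.19 RPM. Mdm2, which encodes the ligase that degrades p53, was at 153 and 147 RPM against 81.3 and 79.1 RPM. The calls of these 5 genes held in the 4 fits.

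Cdkn1a, the gene of the cell cycle inhibitor p21, was at 10.2 and 20.4 RPM against 6.62 and 7.55 RPM. Its call (adjusted p = 0.0278) was lost without d4c3 replicate 2 (0.288), E9.5 replicate 1 (0.161) or E9.5 replicate 2 (0.0942). Trp53 itself was at 279 and 183 RPM in d4c3 and 43.4 and 3.54 RPM at E9.5, where replicates differed more than 10-fold. The Trp53 difference was 5.65 without E9.5 replicate 1 and 2.35 without E9.5 replicate 2, so its size is poorly fixed.

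Among 18 genes of the BCL2 family and apoptosis, 5 were higher and 1 lower, 1 of the 18 having passed the filter only through E9.5. The higher genes had opposing roles. The pro-apoptotic Pmaip1 (Noxa), which is also in the p53 list, was at 5.48 and 11.9 RPM against 1.59 and 1.297 RPM, and Bid at 108 and 111 RPM against 62.1 and 61.1 RPM. The anti-apoptotic Mcl1 was at 275 and 264 RPM against 173 and 161 RPM, and the caspase inhibitor gene Xiap at 52.0 and 50.1 RPM against 28.7 and 30.9 RPM. Casp8, the initiator caspase of death receptors, was listed at 0 in d4c3 and was at 6.07 and 5.36 RPM at E9.5.

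Of 23 cell cycle genes tested, 1 was higher and 4 were lower, together 5 of 23, near the share of all tested genes (23.7%). Among the 23, 1 passed the filter only through E9.5. Mki67 was at 202 and 222 RPM in d4c3 and 187 and 201 RPM at E9.5, and the mitotic cyclin gene Ccnb1 at 483 and 467 RPM against 447 and 475 RPM. The D-type cyclins differed from each other. Ccnd2 was listed at 0 in both d4c3 libraries and was at 22.4 and 20.1 RPM at E9.5, and Ccnd1 was near 0 as given above. Ccnd3 was at 48.9 and 54.3 RPM against 50.0 and 42.3 RPM and was not called. The kinase gene Cdk1 was the higher gene, at 277 and 301 RPM against 189 and 173 RPM.

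Surface and adhesion genes went both ways, with 3 of 17 tested higher and 4 lower, 1 of the 17 (Podxl) having passed the filter only through E9.5. Higher calls numbered 1 without d4c3 replicate 2 or E9.5 replicate 1, and lower calls 1 with a filter of 20 RPM. The tetraspanin gene Cd9 was at 231 and 283 RPM in d4c3 and 54.8 and 49.5 RPM at E9.5 (2.27 ± 0.15). The glycoprotein gene Cd24a was at 64.2 and 91.4 RPM against 381 and 360 RPM (-2.26 ± 0.24). Cdh2, the N-cadherin gene of mesenchyme and neural cells, was at 1.57 and 1.77 RPM against 13.2 and 17.5 RPM, and the sialomucin gene Podxl at 2.35 and 1.33 RPM against 12.9 and 13.5 RPM. Epcam and Alpl, the alkaline phosphatase gene by which PGCs are stained, were not called. Cxcr4, the receptor that guides PGC migration, was too low to test, at 1.57 and 1.77 RPM against 2.21 and 4.48 RPM.

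Among genes with at least 50 RPM in the higher group, the largest increases in d4c3 were in genes outside most of these lists. Calcoco2, an autophagy receptor gene, was at 189 and 263 RPM in d4c3 and 5.52 and 4.95 RPM at E9.5, a difference of 5.17 ± 0.25 (adjusted p = 9.39e-09). Fabp3, which encodes a fatty acid-binding protein, was at 54.8 and 72.3 RPM against 1.84 and 1.89 RPM (4.48 ± 0.24). The galectin gene Lgals9 was at 264 and 247 RPM against 16.9 and 23.6 RPM, and the protein kinase C gene Prkch at 101 and 66.5 RPM against 7.72 and 5.43 RPM. In E12.5 germ cells male and female means were 2.59 and 50.9 RPM for Calcoco2 and 3.06 and 2.65 RPM for Fabp3.

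At culture day 7 (d4c7) Calcoco2 averaged 219 RPM and Fabp3 196 RPM. Antioxidant and metal-response genes were higher in 4 of 16 tested and lower in 2, with a median of 0.38. Higher calls numbered 2 without either E9.5 library, without the filter on low values or without the variance trend, and 8 in a fit of the 4 libraries alone, with or without a replicate block. Lower calls numbered 1 without d4c3 replicate 1, E9.5 replicate 2 or the variance trend. The metallothionein gene Mt2, which binds zinc and other metals, was at 387 and 1071 RPM against 87.1 and 88.0 RPM, and Mt1 at 66.7 and 381 RPM against 40.1 and 47.9 RPM. Both were higher in d4c3 replicate 2 than in replicate 1. The call of Mt1 (adjusted p = 0.0179) was lost without d4c3 replicate 2 (0.149), E9.5 replicate 1 (0.139) or E9.5 replicate 2 (0.0893). Next in the ranking were the actin-bundling gene Lcp1, the chromodomain gene Cdyl2, the complement regulator gene Cd59a and the LIM-domain gene Pdlim1, with differences of 2.62 to 2.78.

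The largest decreases, besides globin genes, Ldha, Slc16a3 and Id1, were in Igfbp4 and in the gene listed as D0H4S114. Igfbp4, which encodes a binding protein of insulin-like growth factors, was listed at 0 in d4c3 and was at 55.9 and 47.4 RPM at E9.5. D0H4S114 was at 0.391 and 0.887 RPM against 47.4 and 52.8 RPM (-4.98 ± 0.34). Both were below 5 RPM on average in E12.5 germ cells of either sex.

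By chromosome, the difference stood apart on chromosome 16, a comparison made after the values were seen. Of 341 tested genes there, 113 were higher in d4c3 (33.1%) and 12 lower (3.52%), with a median of 0.42. On each of the other chromosomes 10.0% to 17.2% were higher and 6.96% to 14.3% lower, with medians of -0.05 to 0.14. Mean levels were higher in d4c3 for 80.1% of the tested genes of chromosome 16 and for 52.6% of all others. The shift ran along the whole chromosome: in 4 stretches of 85 or 86 tested genes, medians were 0.36, 0.42, 0.45 and 0.44.

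Across libraries, chromosome 16 was set against the other autosomes, gene by gene relative to the mean of the 12 libraries. It was higher by 0.32 and 0.16 in d4c3 replicates 1 and 2, by 0.34 and 0.06 in the cultures of day 5 (d4c5) and by 0.30 in d4c7 replicate 1. The value of d4c7 replicate 2 was -0.09. All 6 embryonic libraries lay between -0.15 and -0.21. Copy number was not measured. Without the genes of chromosome 16, 1343 genes were higher and 1106 lower.

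**Figure D5:**
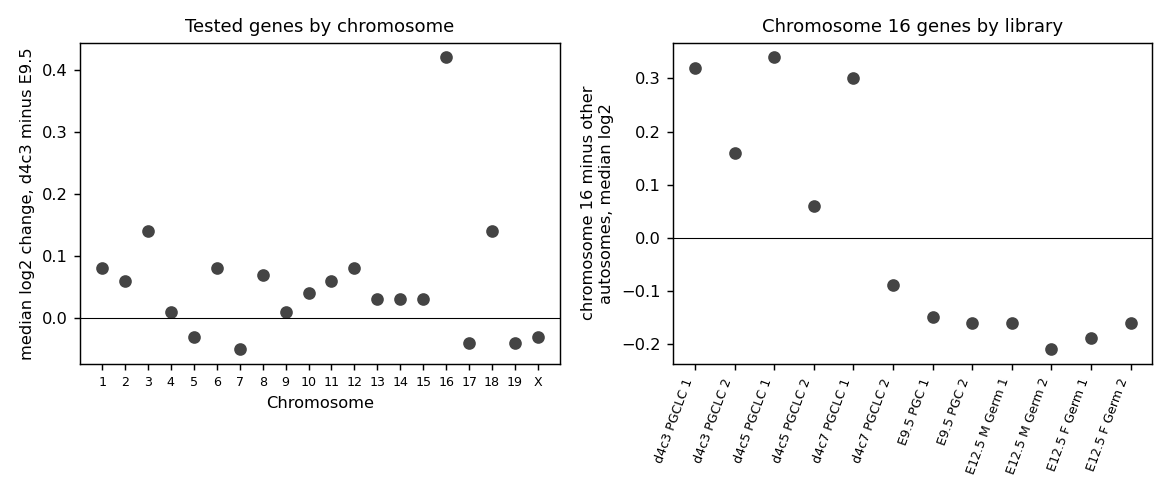
Left, the median log2 change of tested genes, d4c3 minus E9.5, by chromosome. Right, the median log2 level of chromosome 16 genes minus that of other autosomal genes, each gene relative to its mean over the 12 libraries, with 1 point per library. Chromosome 16 stands at 0.42 on the left, and on the right 5 of the 6 culture libraries lie above 0 and all 6 embryonic libraries below it.

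X-linked genes showed no such shift as a group: of 409 tested, 41 were higher (10.0%) and 53 lower, with a median of -0.03. Xist, the RNA that coats the inactive X chromosome, was too low to test. It was at 0 and 0.444 RPM in d4c3 and 6.99 and 3.54 RPM at E9.5, where the labels do not separate the sexes.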

How the data were processed

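RNA of 12 libraries in 6 groups of 2 was measured by 3′-end sequencing on the SOLiD platform after cDNA amplification, per the labels' protocols. The deposited table holds RPM, reads scaled by the authors to a fixed library total, for 26218 gene rows and 92 ERCC spike-in rows. Cutadapt 1.3, TopHat 1.4.1, Cufflinks 2.2.0 and the build mm10 are named in the submitters' processing notes, without their roles. No column of the table was left unmapped (0). Value steps gave the depth, but only 85.3% to 87.0% of the low values in the 4 libraries compared were whole reads to within 0.1 read, so no count model was run.

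Genes with at least 5 RPM in 2 or more of the 12 libraries were tested (10856), on log2(RPM + 1), with limma 3.58.1 in R 4.3.3. The model had a mean for each of the 6 groups and a mean-variance trend (6 residual degrees of freedom), tested d4c3 minus E9.5 and used Benjamini-Hochberg adjustment over all tested genes. The calculation was tested on simulated data. Members, groups and the 30 gene lists were chosen with earlier results of these data known. Values are named for 12 germ cell genes, up to 4 called genes with the largest change per list, and the 10 largest increases and decreases with at least 50 RPM in the higher group. Other named genes were chosen from the lists after their values were seen. Positions and promoters are from RefSeq on GRCm38.p6, matched by gene identifier for 24619 rows. Alternatives changed the pseudocount, filter, scaling, variance trend, libraries in the fit and replicate block, and left out each library. Replicate numbers did not pair d4c3 with E9.5 libraries.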

Additional observations from a re-analysis of the deposited data

Results flagged for a closer look

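Spike-in RNA, which lies outside the comparison of genes, gave signal in all 4 libraries. The 92 ERCC transcripts summed to 67.6 and 72.7 RPM in d4c3 replicates 1 and 2 and to 1371.9 and 628.5 RPM in E9.5 replicates 1 and 2. The amount added to each library is not given in the sources used here, and the RNA input was 10 ng in d4c3 and 1 ng at E9.5. Groups of 2 libraries are too small to check for single outlying values.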

How the results depend on the processing

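Leaving out 1 library at a time gave 1321 to 1685 called genes (745 to 959 higher, 576 to 726 lower) in place of 2574 (1456 higher, 1118 lower). The lone library left in a group was then assumed to vary like the other groups. A filter of 20 RPM gave 662 lower calls, since fewer low genes were tested. Without a filter there were 1279 higher and 1640 lower calls. With median scaling there were 1273 and 1274, and the shift between the groups was 0.04 on the log2 scale. Calls without chromosome 16, an alternative chosen after seeing the data, numbered 1343 higher and 1106 lower. Same-numbered libraries of d4c3 and E9.5 did not deviate together (correlation of deviations across genes -0.036), while those of d4c3 and the later culture days did (0.116 and 0.131). With a replicate block 3590 genes were called over the 4 libraries and 2718 over the 12. Against 3372 called over the 4 libraries without a block, the block changed the count by less than 1.5 times. Of 134 named genes, 98 of the 130 called kept the call with each of the 4 libraries left out. Between 22 and 28 lost it in any 1 of these fits, 21 without a filter, 15 without the variance trend, 2 with median scaling, 3 with a pseudocount of 0.5 and 1 with a pseudocount of 5. The difference of Kit, not called, ranged from -0.039 to 0.011 with a library left out and was above 0 only without E9.5 replicate 2. Tfap2c was called with the 4 libraries alone. Of 60 counts of higher or lower list members, between 16 and 23 moved by over 1.5 times with a library left out, 17 without a filter, 17 with a filter of 20 RPM, 12 without the variance trend and 10 with the 4 libraries alone. The causes of these changes were not tested. Depth limits genes below about 1.33 RPM, the value of 3 reads in the shallowest library compared.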

Other observations

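Stress and metabolic lists not described above are given here. Genes that amino acid shortage induces through the factor ATF4 were higher in 4 of 19 tested and lower in 1, with a median difference of 0.18. Together these calls were near the share of all tested genes (23.7%). The count of higher genes was 2 without either E9.5 library or without the variance trend, and 7 with a replicate block over the 4 libraries. Slc3a2, the shared heavy chain gene of amino acid transporters, was at 312 and 308 RPM in d4c3 and 183 and 176 RPM at E9.5 (0.79 ± 0.12, limma adjusted p = 0.000289), and its call held with each of the 4 libraries left out. The asparagine synthetase gene Asns was at 350 and 315 RPM against 253 and 241 RPM, and lost its call without d4c3 replicate 1 (adjusted p = 0.0880) or E9.5 replicate 2 (0.0792).

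Chaperone genes of the unfolded protein response were lower in 4 of 15 tested and higher in 0, with a median of -0.50. The share called in either direction was near that of all tested genes (23.7%). All of the list's calls were lower, a larger share than the 10.3% lower among all tested genes, whose median was 0.04. In a fit of the 4 libraries alone 7 were lower, with or without a replicate block. The endoplasmic reticulum chaperone gene Hsp90b1 was at 559 and 503 RPM in d4c3 and 841 and 893 RPM at E9.5 (-0.71 ± 0.09). Hspa5, the gene of BiP, was at 405 and 368 RPM against 552 and 541 RPM, and Manf, a secreted protein of the same response, at 183 and 171 RPM against 297 and 316 RPM. These 3 calls held in the 4 fits.

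In cholesterol synthesis 1 of 24 tested genes was higher and 0 lower, with a median of 0.09. That gene, Sqle, kept its call only without d4c3 replicate 2, a fit in which 5 members were higher, and 4 were higher with a replicate block over the 4 libraries. Among 12 cAMP response genes 1 was higher and 2 were lower (median 0.28), near the share called of all tested genes (23.7%). The higher one was the nuclear receptor gene Nr4a1, at 9.78 and 15.5 RPM against 0.368 and 1.89 RPM. Lower cAMP calls numbered 1 in each of the 4 fits with a library left out, Per1 (adjusted p = 0.0341) being lost in all of them (0.0712 to 0.218). Of 13 immediate early genes 1 was higher and 3 lower (median 0.15), 2 of the 13 (Jun and Myc) having passed the filter only through E9.5. The lower ones, Jun, Egr1 and Myc, each lost the call in 3 or 4 of the 4 fits with a library left out, and lower calls numbered 0 without a filter or with a filter of 20 RPM and 5 in a fit of the 4 libraries alone.

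Promoter windows of these lists were searched on both strands too. The cAMP-response element TGACGTCA, in 1.55% of all windows, was in 0 of the 3 called cAMP genes with a window. The amino acid response element TGATGNAA, in 3.45% of all windows, was in 1 of 3, Asns, 23 bases before its start.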
